A study of Mus musculus with 4 samples.

Results

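The 6 genes described here are those whose names in the deposited table are Cebpa, Cebpb, Cebpd, Cebpe, Cebpg and Cebpz, out of 54532 genes listed. They were matched by name alone, though the set was chosen with earlier results of these data known. All 6 had enough reads to be among the 13932 genes tested. Messenger RNA was measured by bulk RNA sequencing in mouse tumour-associated macrophages, which were sorted from glioblastoma xenografts as live CD45+, Gr1-, CD11b+ cells. There were 2 libraries labelled as treated with MK-8931 and 2 control libraries. MK-8931 is verubecestat, which blocks the beta-secretase BACE1. The labels give the host only as GBM mice, with no strain, genotype or age. Their protocols place a treatment of 3 days with vehicle or an agent written TAM_MK-8931, and the RNA extraction, in glioma stem cells rather than in macrophages, so how the drug reached the sorted cells is not settled. Whether each library is a separate animal is not stated, so the p-values reflect the spread among these 4 libraries, which may be technical.

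C/EBP proteins (CCAAT/enhancer binding proteins) are transcription factors that pair through a leucine zipper and bind DNA through a basic region next to it. C/EBP-alpha is required to form granulocyte and monocyte precursors, C/EBP-beta and C/EBP-delta are induced by inflammatory cytokines in macrophages, and C/EBP-epsilon acts late in granulocyte maturation. In macrophages C/EBP-beta is also known for driving the arginase gene Arg1. C/EBP-gamma lacks an activation domain and works as a partner of other bZIP proteins such as ATF4. Cebpz carries the family name but encodes a nucleolar protein of ribosome assembly that is not a bZIP factor.

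Library totals lay between 18257930 and 20179875 counts. All 7 macrophage markers examined were detected in every library, with a summed level of 5500 and 5370 CPM (counts scaled to library size, with TMM factors) in the MK-8931 libraries and 5340 and 5500 CPM in the controls. Neutrophil markers stood apart between the groups. Of 15 listed, 10 could be tested and 9 of those rose, meaning higher at an adjusted p under 0.05 by edgeR. Over all genes tested 0.861% were called higher and 0.136% lower. The 15 summed to 579 and 951 CPM with MK-8931, against 89.9 and 87.2 CPM in the controls. Of these sums Csf3r alone gave 217 and 292 CPM with MK-8931 and 64.1 and 56.5 CPM in the controls. Ly6g, the neutrophil antigen bound by the Gr1 antibody, was at 0 in 3 libraries and at 0.760 CPM in MK-8931 2, and Elane was at 0 in all. Of 9 monocyte markers 5 rose, but their summed level overlapped between the groups. It was 7350 and 6900 CPM with MK-8931 and 7000 and 6600 CPM in controls. Of 8 tested microglial markers 0 passed in edgeR (3 lower with DESeq2 and 0 with limma-voom). At an unadjusted p under 0.05 in edgeR, 5 of the 8 were lower, beside 10.8% of all genes in either direction. In bulk samples fewer cells of a type and less RNA per cell cannot be told apart. Bace1, which encodes the drug's target, was at 8.76 and 9.18 CPM with MK-8931 and at 11.9 and 7.05 CPM in controls (adjusted p = 0.965 by edgeR).

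In control macrophages Cebpa and Cebpb were abundant, while the other 4 were far lower. Genes were ranked by FPKM (counts scaled to gene length and library size) among 1471 genes, those with a transcription factor family in the table and any member without one. Cebpb stood at rank 4 and 3 in the MK-8931 libraries and at rank 10 and 11 in the controls. Cebpa stood at rank 7 or 8 in each of the 4. Per length, the order of the means with MK-8931 was Cebpb at 276 ± 55.9 FPKM, Cebpa at 174 ± 4.01, Cebpg at 11.9 ± 0.280, Cebpd at 10.6 ± 1.46, Cebpz at 8.33 ± 0.0935 and Cebpe at 1.73 ± 0.0698 (SD, n = 2). In controls it was Cebpa at 210 ± 0.452 FPKM, Cebpb at 171 ± 3.67, Cebpz at 10.3 ± 0.744, Cebpg at 9.94 ± 0.481, Cebpd at 5.71 ± 0.474 and Cebpe at 1.41 ± 0.523. In MK-8931 2 Cebpg and Cebpd were both at 11.7 FPKM, and in controls the ranges of Cebpz and Cebpg overlapped, so the order in those pairs is within their spread.

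The comparison asks how these genes differed in macrophages with the inhibitor. None of the 6 members passed edgeR's quasi-likelihood test (0 of 6 at an adjusted p under 0.05), where 0.861% of all genes tested were called higher and 0.136% lower. At an unadjusted p under 0.05, 2 of 6 were higher (Cebpb and Cebpd) and 0 lower, beside 10.8% of all genes in either direction. DESeq2 called the same 2 members higher (2 of 6, where 1.88% of all genes were called higher), and limma-voom called 0 of 6 (0.89% higher). With edgeR the same 2 of 6 were called higher without the filter on low counts (1.55% of all genes higher), without control 1 (3.5%) and without control 2 (1.16%). The authors' deposited table has these 2 of 6 higher and 0 lower at an adjusted p under 0.05, where it has 1.08% of its 22381 genes higher and 0.42% lower. In 5 of 6 members both MK-8931 libraries lay on one side of both controls, beside 41.2% of all genes tested.

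**Figure D1:**
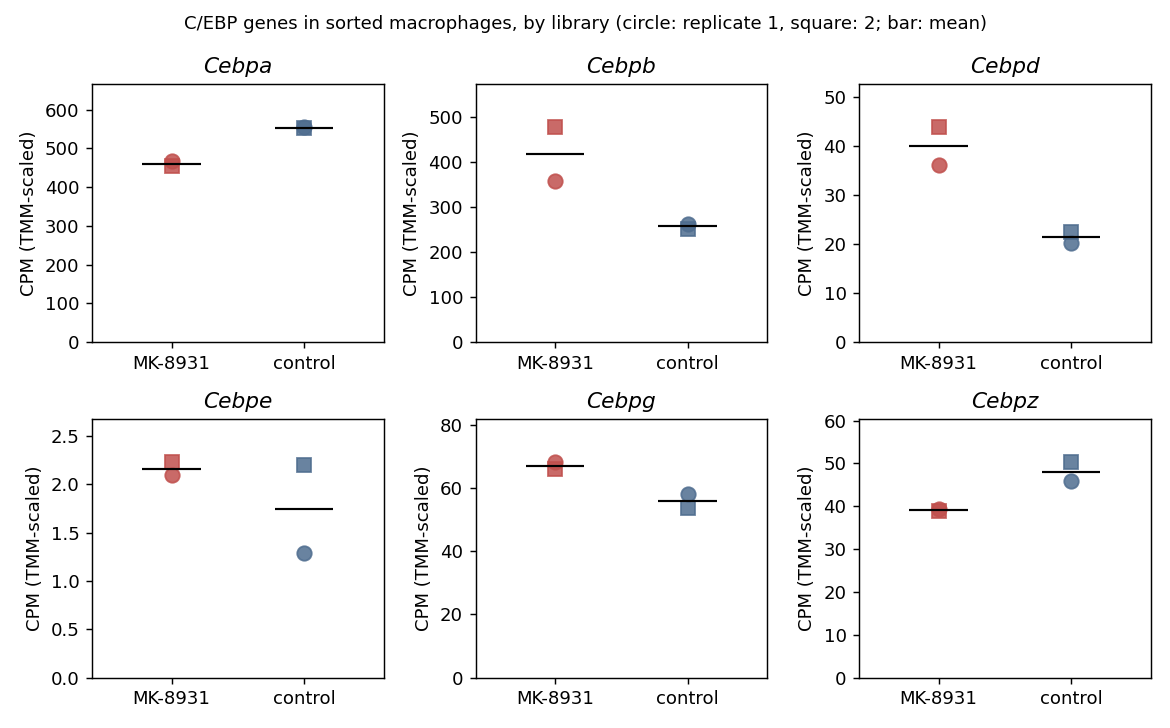
Level of each C/EBP gene in CPM (TMM-scaled) in the 2 MK-8931 libraries and the 2 control libraries, with a bar at each group's mean and axes that start at 0. The MK-8931 points lie above the controls for Cebpb, Cebpd and Cebpg and below them for Cebpa and Cebpz, while the Cebpe groups overlap.

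Cebpb encodes C/EBP-beta, the member best known for driving inflammatory genes in macrophages. It lies on chromosome 2 from 167688915 to 167690418 (GRCm38, plus strand) in 1 exon. Cebpb was at 358 and 478 CPM in the MK-8931 libraries, against 262 and 252 CPM in the controls. The MK-8931 libraries were both above the controls and differed from each other by far more than the controls did. The fitted log2 fold change was 0.70 (SE 0.16, a 1.63-fold higher level, adjusted p = 0.0885 by edgeR). The authors' deposited table gives Cebpb a log2 fold change of 0.69 with an adjusted p of 0.0031. The call turned on the method and the library: without the filter on low counts the adjusted p was 3.98e-04, without control 1 it was 0.00424 and without control 2 it was 0.0430. Without MK-8931 2 the log2 fold change was 0.47 (adjusted p = 0.621), and without MK-8931 1 it was 0.89 (0.0525). The neutrophil marker sum moved in the same order, with 951 CPM in MK-8931 2 and 579 CPM in MK-8931 1, and its part in the Cebpb values was not tested.

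Cebpb shares 908 bases (60.4% of its span) with Tmem189 on the opposite strand, and the sources used here do not say whether the counting used strand. The shared stretch therefore cannot be assigned to one gene with certainty. Tmem189 was at 309 and 307 CPM with MK-8931 and at 356 and 351 CPM in controls (log2 fold change −0.20, SE 0.12, adjusted p = 0.634 by edgeR), so it lay on the other side of its controls. The next gene downstream, the long non-coding A530013C23Rik, begins 758 bases away and was at 1.02 and 1.68 CPM with MK-8931 and 1.29 and 0.817 CPM in controls.

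Cebpd encodes C/EBP-delta, an acute-phase factor that C/EBP-beta can pair with. It lies on chromosome 16 from 15887286 to 15891031 (plus strand). Cebpd was at 36.2 and 44.0 CPM with MK-8931, against 20.2 and 22.6 CPM in controls. The gap between the groups was wider than the gap within either. Its log2 fold change of 0.91 (SE 0.17, a 1.87-fold higher level) was the largest of the 6 and lay just outside the threshold (adjusted p = 0.0537 by edgeR). In the authors' deposited table the log2 fold change was 0.90 with an adjusted p of 0.0058. Cebpd passed without control 1 (adjusted p = 0.0137) and without control 2 (0.0107), and moved away from the threshold without MK-8931 2 (log2 fold change 0.74, adjusted p = 0.343). Without MK-8931 1 the log2 fold change was 1.03 (0.0601). MK-8931 2, the library with more neutrophil marker RNA, was again the higher of the pair, and the part of that RNA was not tested. Spidr, which shares 1808 bases (48.3% of the Cebpd span) on the opposite strand, was at 32.5 and 35.1 CPM with MK-8931 and at 34.0 and 30.0 CPM in controls, with overlapping groups.

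Cebpa encodes C/EBP-alpha, which sets up the myeloid lineage and restrains cell division. It lies on chromosome 7 from 35119293 to 35121928 (plus strand). A predicted antisense gene, Gm45091, shares 313 bases with it and did not exceed 0.489 CPM in any library. Cebpa was at 468 and 454 CPM with MK-8931, against 556 and 553 CPM in controls. Replicates were close in both groups, and the groups did not overlap. The log2 fold change was −0.27 (SE 0.12, adjusted p = 0.470 by edgeR), and it stayed between −0.30 and −0.24 under every alternative run, none of which called it.

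Within a library, Cebpb lay above Cebpa in both MK-8931 libraries and below it in both controls. The ratio of Cebpb to Cebpa in FPKM was 1.34 and 1.85 in the MK-8931 libraries, against 0.825 and 0.798 in the controls. Cebpa supplied 40.5% and 33.4% of the summed FPKM of the 5 bZIP members with MK-8931 and 52.5% and 53.2% in controls, and Cebpb 54.2% and 61.7% with MK-8931 and 43.3% and 42.4% in controls. The summed FPKM itself was 436 and 512 with MK-8931 and 400 and 396 in controls. The groups did not overlap in any of these values. An exact permutation test with 2 libraries a group cannot go below a two-sided p of 0.33, and each of these comparisons gave that value. The ratio of Cebpd to Cebpa was 0.0543 and 0.0682 with MK-8931 and 0.0256 and 0.0287 in controls (exact permutation p = 0.33).

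**Figure D2:**
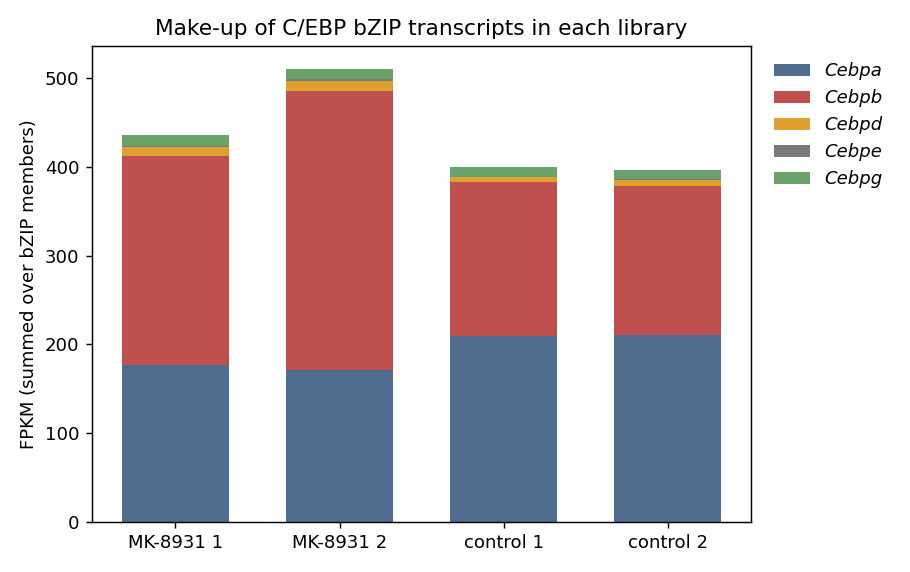
FPKM of the 5 bZIP members stacked for each library, MK-8931 libraries on the left and controls on the right. Cebpb makes up 54.2% and 61.7% of the stack with MK-8931 and 43.3% and 42.4% in controls, and Cebpa the greater part of the remainder.

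Cebpg encodes the partner protein C/EBP-gamma and sits 62719 bases from Cebpa on chromosome 7 (35046422 to 35056573, minus strand). Cebpg was at 68.2 and 66.0 CPM with MK-8931, against 58.0 and 53.8 CPM in controls. The groups did not overlap, and the log2 fold change of 0.26 (SE 0.14, adjusted p = 0.571 by edgeR) did not pass. The 2 neighbouring family genes therefore lay on opposite sides of their controls. The ratio of Cebpb to Cebpg in FPKM was 19.6 and 27.0 with MK-8931 and 16.8 and 17.5 in controls (exact permutation p = 0.33). Pepd, the gene 1713 bases from Cebpg on its other side, was at 98.4 and 114 CPM with MK-8931 and at 120 and 139 CPM in controls (adjusted p = 0.537 by edgeR). Cebpg shares 1140 bases with Gm44836 and 617 with Gm45094 on the same strand, and 353 with Gm45095 on the opposite strand. These predicted genes did not exceed 1.67 CPM in any library, and reads in the shared stretches cannot be assigned to one gene with certainty.

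Cebpe encodes C/EBP-epsilon (chromosome 14, 54710360 to 54712174, minus strand) and was near the limit of detection. It had 41 and 41 counts with MK-8931, against 24 and 43 counts in controls, or 2.10 and 2.23 CPM against 1.29 and 2.20 CPM. Control 2 lay between the MK-8931 libraries, so the groups overlapped. The log2 fold change of 0.31 (SE 0.51, adjusted p = 0.905 by edgeR) depended on the control kept, at −0.030 without control 1 and 0.74 without control 2. No difference was detectable at this depth, at which 3 counts correspond to 0.153 to 0.163 CPM.

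Cebpz, the nucleolar gene (chromosome 17, 78919006 to 78937066, minus strand), was at 39.3 and 38.8 CPM with MK-8931, against 45.8 and 50.3 CPM in controls. The groups did not overlap and the log2 fold change of −0.30 (SE 0.15, adjusted p = 0.533 by edgeR) did not pass. It shares 1301 bases with Cebpzos on the opposite strand, whose groups overlapped at 3.28 and 3.75 CPM with MK-8931 and 2.85 and 5.62 CPM in controls.

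**Figure D3:**
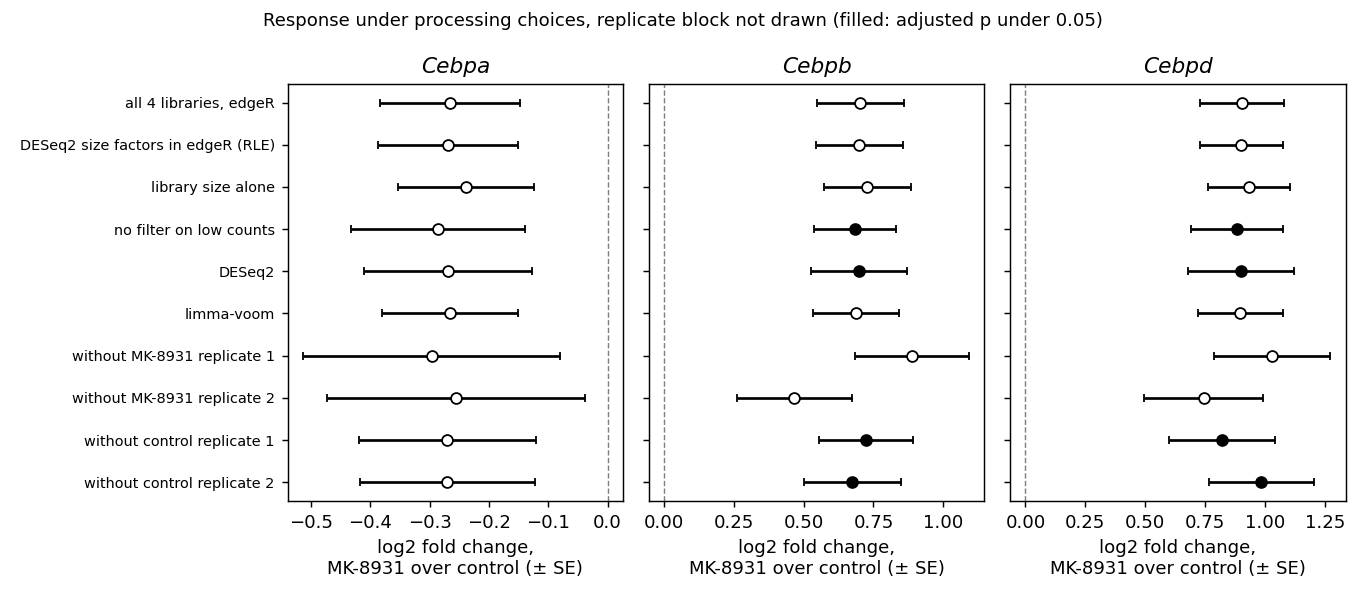
Log2 fold change of Cebpa, Cebpb and Cebpd, MK-8931 over control, with its standard error under the processing choices named on the axis, which leave out a block by replicate number, filled where the adjusted p was under 0.05. The values keep their sign throughout, and the filled points drawn are Cebpb and Cebpd without the filter, with DESeq2 and with either control left out.

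RefSeq promoters (GRCm38.p6) matched 3 of the 6 members by symbol, and their 250 bases before the start are shown because Cebpb, Cebpa and Cebpg differ in base make-up and in short motifs there. Capitals mark TGACG, the core of the cAMP response element, or CCAAT, the box for which the family was named, on either strand. The lines give Cebpb (chr2:167688665-167688914, plus strand), Cebpa (chr7:35119043-35119292, plus strand) and Cebpg (chr7:35056567-35056816, minus strand), each 5′ to 3′.
Cebpb: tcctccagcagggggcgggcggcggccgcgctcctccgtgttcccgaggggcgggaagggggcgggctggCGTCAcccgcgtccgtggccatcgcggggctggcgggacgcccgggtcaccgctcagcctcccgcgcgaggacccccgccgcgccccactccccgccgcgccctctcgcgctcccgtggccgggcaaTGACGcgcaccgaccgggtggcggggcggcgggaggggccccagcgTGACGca
Cebpa: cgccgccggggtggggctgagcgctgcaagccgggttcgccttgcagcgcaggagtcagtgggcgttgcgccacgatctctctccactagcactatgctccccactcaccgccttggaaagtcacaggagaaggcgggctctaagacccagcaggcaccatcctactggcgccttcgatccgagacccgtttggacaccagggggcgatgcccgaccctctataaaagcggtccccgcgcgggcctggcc
Cebpg: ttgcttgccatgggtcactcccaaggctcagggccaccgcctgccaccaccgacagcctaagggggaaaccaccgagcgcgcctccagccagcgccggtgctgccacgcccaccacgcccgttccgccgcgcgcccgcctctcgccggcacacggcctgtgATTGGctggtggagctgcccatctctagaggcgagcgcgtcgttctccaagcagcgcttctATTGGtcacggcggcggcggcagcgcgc

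The Cebpb stretch was 81.6% G and C, against 66.4% for Cebpa and 70.8% for Cebpg. Cebpb held TGACG 3 times, at 180, 53 and 7 bases before the start, where 20.8% of all 32851 RefSeq promoters of 300 bases hold it at least once. Cebpg held CCAAT 2 times, at 89 and 28 bases, a motif present in 37.4% of promoters. Both motifs were chosen after the sequences were seen. The C/EBP motif TTGCNNAA, read on both strands, was found in 0 of the 3 member promoters over 300 bases and in 10.8% of all promoters. A match is a description of letters and not of binding.

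Genes around the C/EBP factors were taken from 8 lists, set beside all genes tested, whose median log2 fold change was −0.003. In edgeR 0.861% of all genes tested were called higher and 0.136% lower. The lists were chosen with earlier results of these data known, so their counts and medians are a description and not a test. Of 12 tested bZIP partners and competitors 0 passed in edgeR (2 higher and 2 lower at an unadjusted p under 0.05, and 0 with DESeq2 or limma-voom), with a median of −0.11. The smallest p-values belonged to Batf3, which encodes a factor of dendritic cell development, at 4.35 and 3.42 CPM with MK-8931 and 1.51 and 1.48 CPM in controls (adjusted p = 0.230). Next was Atf5, a stress-induced bZIP factor, at 30.2 and 26.4 CPM with MK-8931 and 20.2 and 17.9 CPM in controls (adjusted p = 0.242). The 2 lower ones, named after their values were seen, were Jun and Atf3. Jun was at 752 and 616 CPM with MK-8931 and 897 and 948 CPM in controls (adjusted p = 0.260 by edgeR). Atf3 was at 493 and 385 CPM with MK-8931 and 563 and 617 CPM in controls (adjusted p = 0.308 by edgeR). Ddit3, which encodes the C/EBP homologous protein CHOP and was singled out after its value was seen, was at 31.0 and 31.6 CPM with MK-8931 and 29.1 and 30.4 CPM in controls. Among 10 tested regulators of C/EBP protein, such as the Tribbles and COP1 degradation factors, 0 passed in edgeR (1 higher and 0 lower unadjusted, and 0 with DESeq2 or limma-voom), with a median of 0.03. The smallest p-values were those of the kinase genes Rps6ka1 (log2 fold change 0.29, adjusted p = 0.432) and Gsk3b (−0.30, adjusted p = 0.557).

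Of 18 receptors and factors upstream of C/EBP transcription, 3 rose and 0 fell in edgeR, with a median log2 fold change of 0.24 (6 higher and 0 lower at an unadjusted p under 0.05, and 4 higher and 0 lower with DESeq2 or limma-voom). The neutrophil marker sum was higher beside them, at 579 and 951 CPM with MK-8931 and 89.9 and 87.2 CPM in controls. So were 5 of 9 monocyte markers, though the summed monocyte level overlapped between the groups. That sum was 7350 and 6900 CPM with MK-8931 and 7000 and 6600 CPM in controls. The part of neutrophil or monocyte RNA was not tested. Both MK-8931 libraries lay above both controls in 12 of the 18, beside 21.2% of all genes. Csf3r, the receptor for granulocyte colony-stimulating factor and itself on the neutrophil list, was at 217 and 292 CPM with MK-8931, against 64.1 and 56.5 CPM in controls (log2 fold change 2.08, SE 0.17, adjusted p = 8.87e-04 by edgeR). Il1rap, the accessory chain of the interleukin-1 receptor, was at 31.7 and 40.4 CPM with MK-8931 and 17.4 and 17.5 CPM in controls (adjusted p = 0.0389, and 0.250 without MK-8931 2). Myd88, the adaptor of interleukin-1 and Toll-like receptors and the remaining gene that rose, was named after its values were seen. It was at 59.8 and 59.5 CPM with MK-8931 and 33.8 and 35.7 CPM in controls (adjusted p = 0.0460, lost without either MK-8931 library at 0.192 and 0.232). Without MK-8931 2 the count was 1, and without control 1 it was 6. Stat3 and Il6ra, of the interleukin-6 pathway and chosen after their values were seen, had overlapping groups and log2 fold changes of 0.05 and 0.14.

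Of 20 inflammatory genes known as targets of C/EBP-beta and C/EBP-delta, 7 rose and 0 fell in edgeR, with a median log2 fold change of 0.685 (13 higher and 1 lower at an unadjusted p under 0.05). Over all genes tested 0.861% were called higher and 0.136% lower in edgeR. This list too was chosen with earlier results of these data known. DESeq2 called 10 higher and 1 lower, and limma-voom 9 higher and 1 lower. Il1b, the interleukin-1 beta gene, was at 265 and 419 CPM with MK-8931, against 42.7 and 30.0 CPM in controls. Ptgs2, the COX-2 gene, was at 188 and 190 CPM with MK-8931, against 56.9 and 63.8 CPM in controls. Both had an adjusted p of 8.4e-04 by edgeR. The other 5, named after their values were seen, were Nos2, Cxcl2, Hp and C3, with log2 fold changes from 1.47 to 3.05, and Csf3, with 68 and 93 counts with MK-8931 against 6 and 2 counts in controls. Csf3 and Il6, which is among the 13 higher unadjusted, had under 10 counts in both controls. They passed the filter only through the MK-8931 libraries, so each could enter these counts only as a rise. Arg1, singled out after its value was seen, was at 1870 and 2360 CPM with MK-8931 and 1210 and 1510 CPM in controls (adjusted p = 0.138 by edgeR). The list also held genes with lower or overlapping values. Tnf was at 80.2 and 54.9 CPM with MK-8931 and 121 and 139 CPM in controls (adjusted p = 0.0605), and the groups overlapped for Ccl2, Il10 and Msr1. The neutrophil marker sum was also higher in both MK-8931 libraries, at 579 and 951 CPM against 89.9 and 87.2 CPM in controls. Its part in this list was not tested.

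Of 12 myeloid targets of C/EBP-alpha, 8 could be tested, and 2 rose and 0 fell in edgeR (median 0.43, with 3 higher and 0 lower at an unadjusted p under 0.05 and also with DESeq2 or limma-voom). They were Csf3r and Itgam, the CD11b chain used in the sort. Itgam was at 327 and 345 CPM with MK-8931 and 220 and 180 CPM in controls (adjusted p = 0.0485, and 0.0599 when scaled by library size alone, 0.122 without MK-8931 1 and 0.248 without MK-8931 2), so the count was 1 without either MK-8931 library. Csf1r, chosen after its value was seen, was at 1580 and 1490 CPM with MK-8931 and 1620 and 1550 CPM in controls. The early granule genes of the list were at or near 0, with Elane at 0 in all libraries and Mpo at 0.871 and 0.272 CPM with MK-8931 and 0.376 and 0.204 CPM in controls.

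Only 5 of 9 granule targets of C/EBP-epsilon passed the filter on low counts. Of those 5, 4 rose, and the other, Ltf, had 42 and 29 counts with MK-8931 against 10 and 1 counts in controls (adjusted p = 0.323 by edgeR). Lcn2, which encodes an iron-scavenging granule protein, was at 25.7 and 42.9 CPM with MK-8931, against 1.13 and 1.33 CPM in controls (adjusted p = 5.74e-04 by edgeR). Mmp8, the neutrophil collagenase gene, was at 59.5 and 83.8 CPM with MK-8931 and 12.3 and 13.3 CPM in controls (adjusted p = 8.72e-04). Chil3 and Cd177 were the other two. Itgb2l and Fcnb were at 0 in all libraries, and Camp and Ngp did not exceed 0.380 CPM in any. The Cebpe groups overlapped, as given above. Lcn2, Mmp8 and Cd177 are also on the neutrophil list, whose summed level was higher in both MK-8931 libraries. Whether neutrophils had a part was not tested.

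Stress targets shared by C/EBP-gamma and ATF4 showed 1 rise and 0 falls in edgeR among 15 genes tested (median 0.07, with 1 higher and 1 lower at an unadjusted p under 0.05, and 1 higher and 0 lower with DESeq2 or limma-voom). Slc7a11, the cystine transporter gene, was at 31.6 and 35.2 CPM with MK-8931, against 7.31 and 7.10 CPM in controls (log2 fold change 2.21, SE 0.19, adjusted p = 9.47e-04 by edgeR). Asns and Trib3, targets chosen after their values were seen, had log2 fold changes of 0.19 and 0.05. Of 21 nucleolar ribosome-assembly genes, the company of Cebpz, 0 passed in edgeR (0 at an unadjusted p under 0.05, and 0 with DESeq2 or limma-voom), with values from −0.46 to 0.14. The smallest p-values were those of Nop14, at 36 and 29.9 CPM with MK-8931 and 40.0 and 43.4 CPM in controls, and Nip7, at 13.7 and 19.7 CPM with MK-8931 and 20.1 and 25.8 CPM in controls (adjusted p = 0.523 and 0.552).

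**Figure D4:**
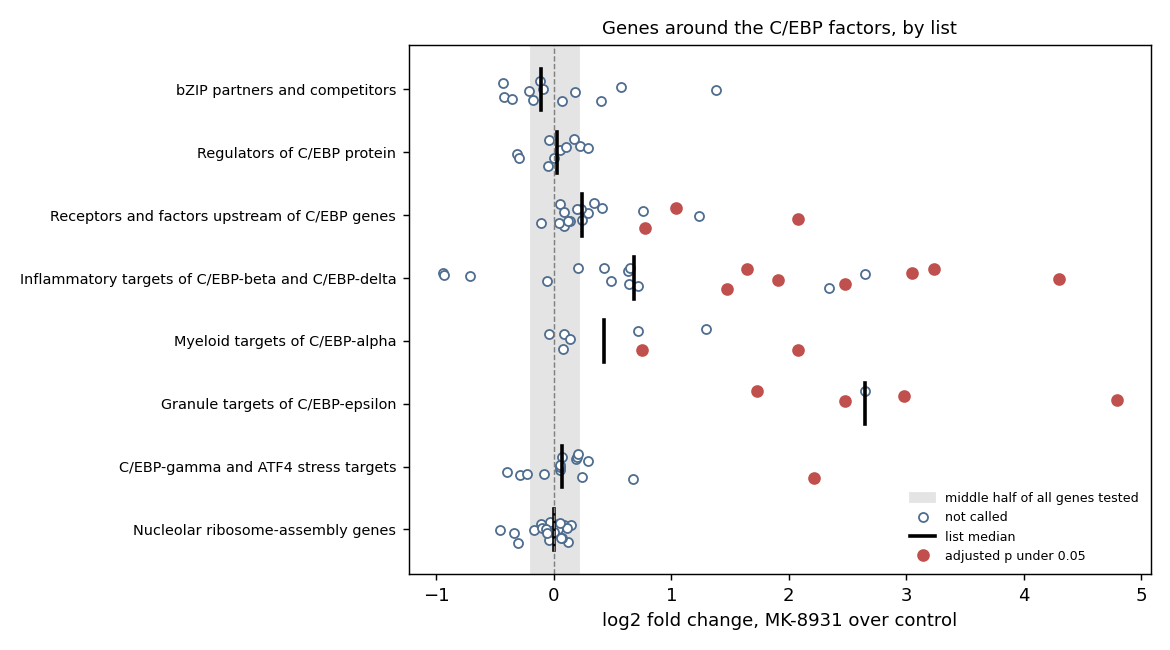
Log2 fold change, MK-8931 over control, of each tested gene in the 8 lists, filled where edgeR's adjusted p was under 0.05, with a bar at the list median and a grey band over the middle 50% of all genes tested (−0.19 to 0.22). Filled points sit to the right of 0 in 5 lists, and none appears among bZIP partners, regulators of C/EBP protein or nucleolar genes.

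The C/EBP motif TTGCNNAA was then read in the promoters of the list genes that rose. Of 16 such genes 13 had a RefSeq promoter and 5 of these held the motif (38.5%), against 12.2% of 27025 genes with a promoter. The lists were drawn from known targets, some of which are known because of such sites, so the share is a description of the lists. The share counts matches anywhere in the 300 bases. The 30 bases are shown around each match that lies wholly before the start that RefSeq gives, and capitals mark the motif. Slc7a11 held 2 matches in its 300 bases, and the one not shown reaches the start or lies after it. For Lcn2 the window falls inside the gene's span in the deposited table, whose first base lies further upstream. They are Ptgs2 (chr1:150099951-150099980, plus strand), C3 (chr17:57228163-57228192, minus strand), Lcn2 (chr2:32387937-32387966, minus strand), Mmp8 (chr9:7558399-7558428, plus strand) and Slc7a11 (chr3:50443755-50443784, minus strand).
Ptgs2: cgctgcggttcTTGCGCAActcactgaagc
C3: aggaaactatgTTGCGAAAttttgggcagt
Lcn2: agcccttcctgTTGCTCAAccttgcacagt
Mmp8: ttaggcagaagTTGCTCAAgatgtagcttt
Slc7a11: ctttggatccaTTGAGCAAcccacaggcta

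The Ptgs2 match begins 69 bases before the start and reads the same on both strands. The other matches shown begin 45 bases before the start in C3, 216 in Lcn2, 19 in Mmp8 and 160 in Slc7a11. Il1b and Csf3r, which also rose, held no match in this window.

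Genes with the pattern most like each member were found by the mean absolute difference of log2(CPM + 1), centred on the control mean, over the 4 libraries and 9528 named protein-coding genes of at least 5 CPM. For Cebpb they were Pstpip1, at 103 and 142 CPM with MK-8931 and 78.7 and 74.8 CPM in controls (difference 0.02), Pdp2 (0.04) and Tlr1 (0.05). For Cebpd they were AB124611 (0.04), Cfp (0.05) and Ptger2 (0.06), and 2 of these, AB124611 and Cfp, passed the test (adjusted p = 0.0354 and 0.0205 by edgeR). Cfp, the properdin gene, was at 279 and 317 CPM with MK-8931 and 164 and 168 CPM in controls. The nearest to Cebpa were Zkscan17, Ttyh2 and Ppp2cb, with differences of at most 0.01. Those nearest to Cebpg were Bud13, Uspl1 and Myo1f (at most 0.02), and those nearest to Cebpz were Hspa9, Anks6 and Pura (at most 0.01). None of these last 9 genes passed, and neither did Pstpip1, Pdp2 or Tlr1 (adjusted p = 0.138, 0.232 and 0.183 by edgeR). All were picked for their likeness to a member, so their p-values are not separate evidence about it. With 4 libraries, many genes lie this close to a small change.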

How the data were processed

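The authors' table holds whole-number read counts for each gene, which were not normalized. It also holds the authors' FPKM, which matched the count over gene length times 1 constant for each library. They served only to compare levels between genes. The authors' deposited table also gives their log2 fold change and p-value, with no test named. A further 4 per-library columns were not used. The submitters' processing notes name CASAVA and mm9, but 98.3% of 54495 shared gene identifiers have the coordinates of GENCODE M21, so coordinates are GRCm38. For the aligner and the counter, names were not given in the sources used here.

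The main test was edgeR 4.0.16 (R 4.3.3): filterByExpr with a minimum count of 10, TMM scaling, the quasi-likelihood F test (two-sided) and Benjamini-Hochberg adjustment over all 13932 genes, with a threshold of 0.05. The SE is the absolute log2 fold change over the square root of F. Alternatives were DESeq2 1.42.0, limma-voom (limma 3.58.1), other scalings, no filter, a replicate block and leaving out each library. The 2 MK-8931 libraries and the 2 controls each differed beyond the noise of sampling, with a chi-square of 15.7 and 26.8 for each degree of freedom. The members and lists were chosen with earlier results of these data known. Named genes are the members, Bace1, the 2 genes of smallest p per direction that passed in each list (or of smallest p where none passed) and the 3 nearest in pattern to each member whose groups did not overlap. A symbol with 2 identifiers (Ddit3) was read from the one with more counts.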

Additional observations from a re-analysis of the deposited data

How the results depend on the processing

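Cebpb and Cebpd kept their sign under all 10 alternatives, and their calls changed with the method. The log2 fold change of Cebpb was 0.68 with no filter (adjusted p = 3.98e-04) and 0.70 with DESeq2 (0.00341). That of Cebpd was 0.88 with no filter (4.95e-04) and 0.90 with DESeq2 (0.00327). The cause was not tested. With one library left out, the lone library of its group is assumed to vary like the other group. In these fits Cebpb ranged from 0.47 to 0.89, Cebpd from 0.74 to 1.03, and Cebpe from −0.030 to 0.74, the lowest reversed without control 1. Cebpa, Cebpg and Cebpz kept their sign and stayed outside the threshold under all 10 alternatives. Bace1 ranged from −0.41 to 0.34, the highest reversed without control 1.

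The replicate number is shared between groups in the labels, which do not say that it marks a shared animal or batch. Same-numbered libraries deviated together with a correlation of 0.243 across genes, over 2 pairs. With the number as a block the log2 fold change was 0.69 for Cebpb (adjusted p = 0.00376) and 0.90 for Cebpd (0.00215), and the block called 468 genes higher and 275 lower. In the lists it called 1 bZIP partner higher and 3 lower, 5 upstream genes higher, and 11 inflammatory targets higher and 1 lower. Il1b did not pass with it (adjusted p = 0.214).

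Over all genes, 120 were called higher and 19 lower, 366 and 176 with no filter, 262 and 95 with DESeq2, and 30 lower with limma-voom. Leaving out one library gave 85 to 520 higher and 10 to 243 lower. No filter called 11 inflammatory targets higher and 1 lower, and DESeq2 and limma-voom each called 1 lower. With one library left out the ranges were 0 to 2 bZIP partners lower, 1 to 6 upstream genes higher, 0 to 2 inflammatory targets lower and 1 to 3 C/EBP-alpha targets higher. Csf3 did not pass with limma-voom (adjusted p = 0.0867). Depth limits Cebpe most, with 24 to 43 counts a library.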
